A study of Caenorhabditis elegans with 2 samples.

Results

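LSY-2, a zinc finger protein that regulates transcription in the worm Caenorhabditis elegans, was examined here for binding at 10 genes for nucleolar ribosome assembly factors, out of 19973 protein-coding genes in the annotation. The 10 genes were fib-1, ncl-1, wdr-46, wdr-12, pro-1, pro-2, pro-3, lpd-6, lpd-7 and nst-1. They were listed by name with earlier results of these data known, so their counts describe binding and do not test it. Binding was measured by ChIP-seq, which sequences the DNA recovered with an antibody, in whole L1 larvae of pooled sexes. All animals were of strain OP367, genotype unc-119(tm4063) III; wgIs367, where wgIs367 is a transgene carrying LSY-2 fused to eGFP. What drives the transgene, and whether the endogenous lsy-2 gene was intact, were not given in the sources used here. The single group had 2 biological replicates with 1 technical replicate each, and there was no second condition. The label for age is unknown and the larvae were not separated by tissue, so a peak does not say in which cells the tagged protein was bound. The lists also do not measure expression, so neither the labelled stage nor any cell type could be checked against marker genes.

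Ribosomes are assembled mainly in the nucleolus, where RNA polymerase I transcribes the ribosomal RNA precursor. That precursor is modified by small nucleolar ribonucleoproteins (snoRNPs), cut, trimmed by the exosome and folded around ribosomal proteins into the small and large subunits. The 10 genes act at several of these steps. Fibrillarin, encoded by fib-1, is the methyltransferase of box C/D snoRNPs, and the human homologue of wdr-46 is part of the processome that makes the small subunit. The homologues of lpd-7 (pescadillo) and wdr-12 (WDR12) form a complex in vertebrates that matures the large subunit. The Brix domain protein of lpd-6, the NOC2 homologue PRO-2, the SDA1 homologue PRO-3, the pre-rRNA-processing protein PRO-1 and the nucleostemin-like GTPase NST-1 also belong to the assembly of large subunits in yeast or animals. The B-box protein NCL-1 works in the opposite direction, since worms that lack it have enlarged nucleoli.

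The bases around the summits, the positions of highest signal within peaks, are shown first because the peaks differ in which short sequences they hold. Each run is 101 bases of the ce11 plus strand, 5′ to 3′, centred on a summit, as read from the RefSeq genome of that assembly. Capitals mark any match on either strand to the 6-mer GAGAGA, to the 6-mer GACGCA or to the 6-mer ACCGTA, so that GAGAGA on the minus strand appears as TCTCTC, while GACGCA on that strand appears as TGCGTC and ACCGTA likewise as TACGGT. These 6-mers came from an earlier look at the same data, so their presence is a description and not a test. The first set holds the strongest promoter peaks of 5 of the 10 genes and, last, the peak at Y39B6A.13, the coding gene just upstream of pro-3. The runs cover chrV:15002236-15002336 for fib-1, chrIV:12372031-12372131 for wdr-46, chrII:10542124-10542224 for pro-1, chrIII:7573030-7573130 for lpd-7, chrII:8283405-8283505 for nst-1 and chrV:19119387-19119487 for Y39B6A.13.
fib-1: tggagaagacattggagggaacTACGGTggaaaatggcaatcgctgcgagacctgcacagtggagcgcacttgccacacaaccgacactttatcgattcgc
wdr-46: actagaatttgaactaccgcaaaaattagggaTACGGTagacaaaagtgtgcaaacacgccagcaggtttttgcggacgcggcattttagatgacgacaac
pro-1: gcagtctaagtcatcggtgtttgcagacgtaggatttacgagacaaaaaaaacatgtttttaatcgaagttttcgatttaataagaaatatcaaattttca
lpd-7: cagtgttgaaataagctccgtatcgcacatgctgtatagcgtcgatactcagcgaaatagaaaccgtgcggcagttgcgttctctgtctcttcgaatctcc
nst-1: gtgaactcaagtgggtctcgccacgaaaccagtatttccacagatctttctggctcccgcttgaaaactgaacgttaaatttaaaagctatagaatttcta
Y39B6A.13: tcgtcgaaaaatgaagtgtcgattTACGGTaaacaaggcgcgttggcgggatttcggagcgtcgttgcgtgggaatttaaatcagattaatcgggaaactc

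The second set comes from ncl-1, whose strongest peaks lay outside its promoter windows and all held GAGAGA in these 4 runs. The runs cover chrIII:7718477-7718577, upstream of the gene, and chrIII:7720995-7721095, chrIII:7728655-7728755 and chrIII:7729752-7729852, all in its introns.
ncl-1 upstream: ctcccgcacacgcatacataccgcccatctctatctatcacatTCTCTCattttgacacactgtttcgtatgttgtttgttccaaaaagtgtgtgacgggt
ncl-1 first intronic: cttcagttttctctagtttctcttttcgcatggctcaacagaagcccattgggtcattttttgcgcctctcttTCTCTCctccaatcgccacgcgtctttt
ncl-1 next intronic: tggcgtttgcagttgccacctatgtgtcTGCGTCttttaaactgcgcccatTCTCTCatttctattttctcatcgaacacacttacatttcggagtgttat
ncl-1 last intronic: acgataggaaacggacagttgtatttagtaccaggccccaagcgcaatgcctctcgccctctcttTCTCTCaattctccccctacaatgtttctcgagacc

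ACCGTA stood in the fib-1 and wdr-46 promoter peaks and in the peak upstream of pro-3, in each case on the minus strand of the chromosome. The genes fib-1 and Y39B6A.13 lie on that strand and wdr-46 on the plus strand, so the orientation to the gene differed. This 6-mer lay 23 to 28 bp from the fib-1 summit, 13 to 18 bp from that of wdr-46 and 21 to 26 bp from that of Y39B6A.13. GACGCA was found 8 to 13 bp from the lpd-6 summit, whose sequence is not shown. None of the 7 summits in the promoter windows of the 10 genes had GAGAGA within 50 bp, 1 had GACGCA, 2 had ACCGTA and 4 had none of them. Over all 4218 peaks of the thresholded list described next, 28.7% had GAGAGA, 17.4% had GACGCA and 7.73% had ACCGTA. At ncl-1, GAGAGA stood at 4 of the 5 summits outside its windows and GACGCA at 1 of them. The base composition of the 7 promoter summits ranged from 25.7% to 53.5% GC with a median of 41.6%, against a median of 45.5% for all 4218 summits.

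Of the 10 genes, 6 had a promoter peak in the list thresholded by the irreproducible discovery rate (IDR), a measure of how alike peaks rank across replicates. They were fib-1, wdr-46, pro-1, lpd-6, lpd-7 and nst-1. A promoter peak is one with its summit between 1000 bp before and 200 bp after an annotated transcript start of the gene. The share was 60% of the 10 genes (95% exact interval 26.2 to 87.8%), against 16.9% of all protein-coding genes (3385 of 19973). The summits of the strongest peaks lay 63 to 270 bp upstream of the nearest transcript start, with a median of 175 bp, against a median of 222 bp over all 3385 genes with a peak. All 6 lay in intergenic sequence, but the matching share over all genes with a peak is not given here.

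Peak signals are values deposited by the authors on a scale that the labels do not explain, so they only rank and describe peaks. Signals in the IDR list, which take the values of the pooled replicates, reached down to 42.2 and had a median of 87.4. The list equals the 4218 strongest of 30000 pooled peaks, so a peak in it need not have been found in each replicate. A summit within 200 bp in both replicates was found for 4179 of them. The pooled list is labelled as peaks and background given to IDR, so its weaker entries need not mark binding. Signals in the replicate lists ran lower, with a median of 8.52 in replicate 1 and 7.84 in replicate 2 against 13.9 in the pool. Over the 4179 IDR peaks with a summit in both replicates, replicate 1 was higher at 3248 and the median log2 ratio of replicate 1 to replicate 2 was 0.34. Both replicates were called against the same control alignment, per the listings deposited with them. The peak lists carry no read counts, so depth is unknown. A replicate's signal is that of its nearest summit within 200 bp.

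The median signal of the strongest promoter peak was 211 over the 6 genes with one, within a range of 67.8 to 2907, against a median of 121 over all 3385 genes with a peak. Signals thus varied widely among the 6 genes. The order was wdr-46, then fib-1, then lpd-7, lpd-6 and pro-1 close together, then nst-1. Replicate signals did not overlap between wdr-46, fib-1, the middle 3 genes and nst-1, but they overlapped among the middle 3. Replicate 1 was higher at 5 of the 6 genes, as at most peaks, and lpd-7 was the exception.

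**Figure D1:**
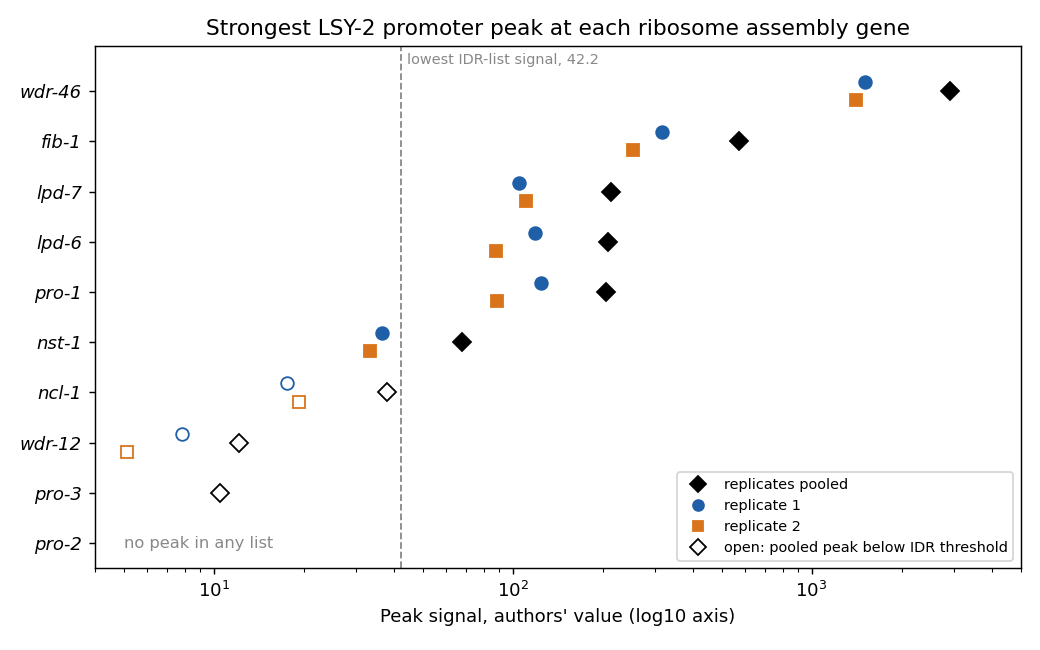
Signal of the strongest promoter peak at each ribosome assembly gene on a log10 axis, with diamonds for the pooled replicates, circles for replicate 1 and squares for replicate 2. The filled diamonds of the 6 genes past the IDR threshold span 67.8 to 2907, while the open diamonds of ncl-1, wdr-12 and pro-3 lie below the lowest IDR signal of 42.2.

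The highest signal stood at wdr-46 (WBGene00009211), which encodes the WDR46 homologue of the small subunit processome. Its peak on chromosome IV runs from 12371852 to 12372290, with the summit at 12372081, 172 bp upstream of the start of the gene (12372253 to 12374834, plus strand). The signal was 2907 in the pool, 1511 in replicate 1 and 1408 in replicate 2, a replicate mean of 1459 ± 72.4 (SD, n = 2). It ranked 18 of 4218 peaks in the IDR list, 20 in replicate 1 and 16 in replicate 2, so both replicates placed it among their strongest. By strongest promoter peak, wdr-46 was number 30 of the 3385 genes, in the top 0.886%. The summit fell in no other gene's promoter window. The gene ccr-4, which encodes a deadenylase, ends 400 bp upstream on the same strand and had a peak of its own at its distant start, with a pooled signal of 65.4.

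Next came fib-1 (WBGene00001423), the fibrillarin gene, on chromosome V from 15000651 to 15002223 on the minus strand. Its peak runs from 15002141 to 15002438, and the summit at 15002286 is 63 bp upstream of the start, the closest of the 6. The signal was 572 in the pool, 317 in replicate 1 and 253 in replicate 2, a replicate mean of 285 ± 45.3 (SD, n = 2). It ranked 196 in the IDR list, 195 in replicate 1 and 191 in replicate 2. The promoter is divergent, since mut-15, a gene for RNA silencing, starts 320 bp away on the other strand. The summit lay nearer to fib-1 than to mut-15, whose start is 257 bp from it.

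The large subunit factors lpd-7, lpd-6 and pro-1 formed a middle group. The pescadillo gene lpd-7 (WBGene00003063, chromosome III, 7573350 to 7575263, plus strand) had a peak from 7572970 to 7573182 with its summit 270 bp upstream of the start. Its signal was 214 in the pool, 105 in replicate 1 and 111 in replicate 2, a replicate mean of 108 ± 4.58 (SD, n = 2). The window is shared with rpl-9, a large subunit protein gene on the other strand, whose start is nearer at 249 bp, and with the non-coding RNA gene R13A5.16. The peak of lpd-7 can therefore not be assigned to lpd-7 rather than rpl-9.

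The Brix domain gene lpd-6 (WBGene00003062, chromosome I, 3144411 to 3147793, minus strand) had a peak from 3147816 to 3148014 with its summit 126 bp upstream of the start. The lpd-6 signal was 209 in the pool, 119 in replicate 1 and 88.3 in replicate 2, a replicate mean of 104 ± 21.5 (SD, n = 2). It too had a divergent promoter: dscc-1, for sister chromatid cohesion, starts 221 bp from lpd-6 and only 95 bp from the summit.

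The gene pro-1 (WBGene00004185, chromosome II, 10539438 to 10541996, minus strand) was alone among the 10 in having 2 IDR peaks in its window. The stronger runs from 10542015 to 10542390, with its summit 178 bp upstream of the start, and had a signal of 206 in the pool, 124 in replicate 1 and 88.9 in replicate 2, a replicate mean of 107 ± 25 (SD, n = 2). The second interval overlaps it, from 10542015 to 10542411, with a summit 383 bp upstream. Its pooled signal was 70.0, replicate 1 had a signal of 59.4 there, and replicate 2 had no summit within 200 bp. The nearest replicate 2 summit on that side, 589 bp upstream of the start, lay just past that distance and had a signal of 16. No other promoter window holds the stronger pro-1 summit. The kinase gene mnk-1 (10542421 to 10555044) ends 424 bp upstream on the same strand. Its own peak of 190, with the summit at 10549055, lay 132 bp upstream of an annotated start inside that gene.

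The weakest of the 6 was nst-1 (WBGene00003821, chromosome II, 8281162 to 8283208, minus strand), the nucleostemin-like gene. Its peak runs from 8283285 to 8283624, with the summit 247 bp upstream of the start. The nst-1 signal was 67.8 in the pool, 36.7 in replicate 1 and 33.4 in replicate 2, a replicate mean of 35.1 ± 2.35 (SD, n = 2). It ranked 2727 of 4218 peaks, below the median of the list. The chaperonin subunit gene cct-4 shares the window and starts nearer, 212 bp from the summit on the other strand.

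**Figure D2:**
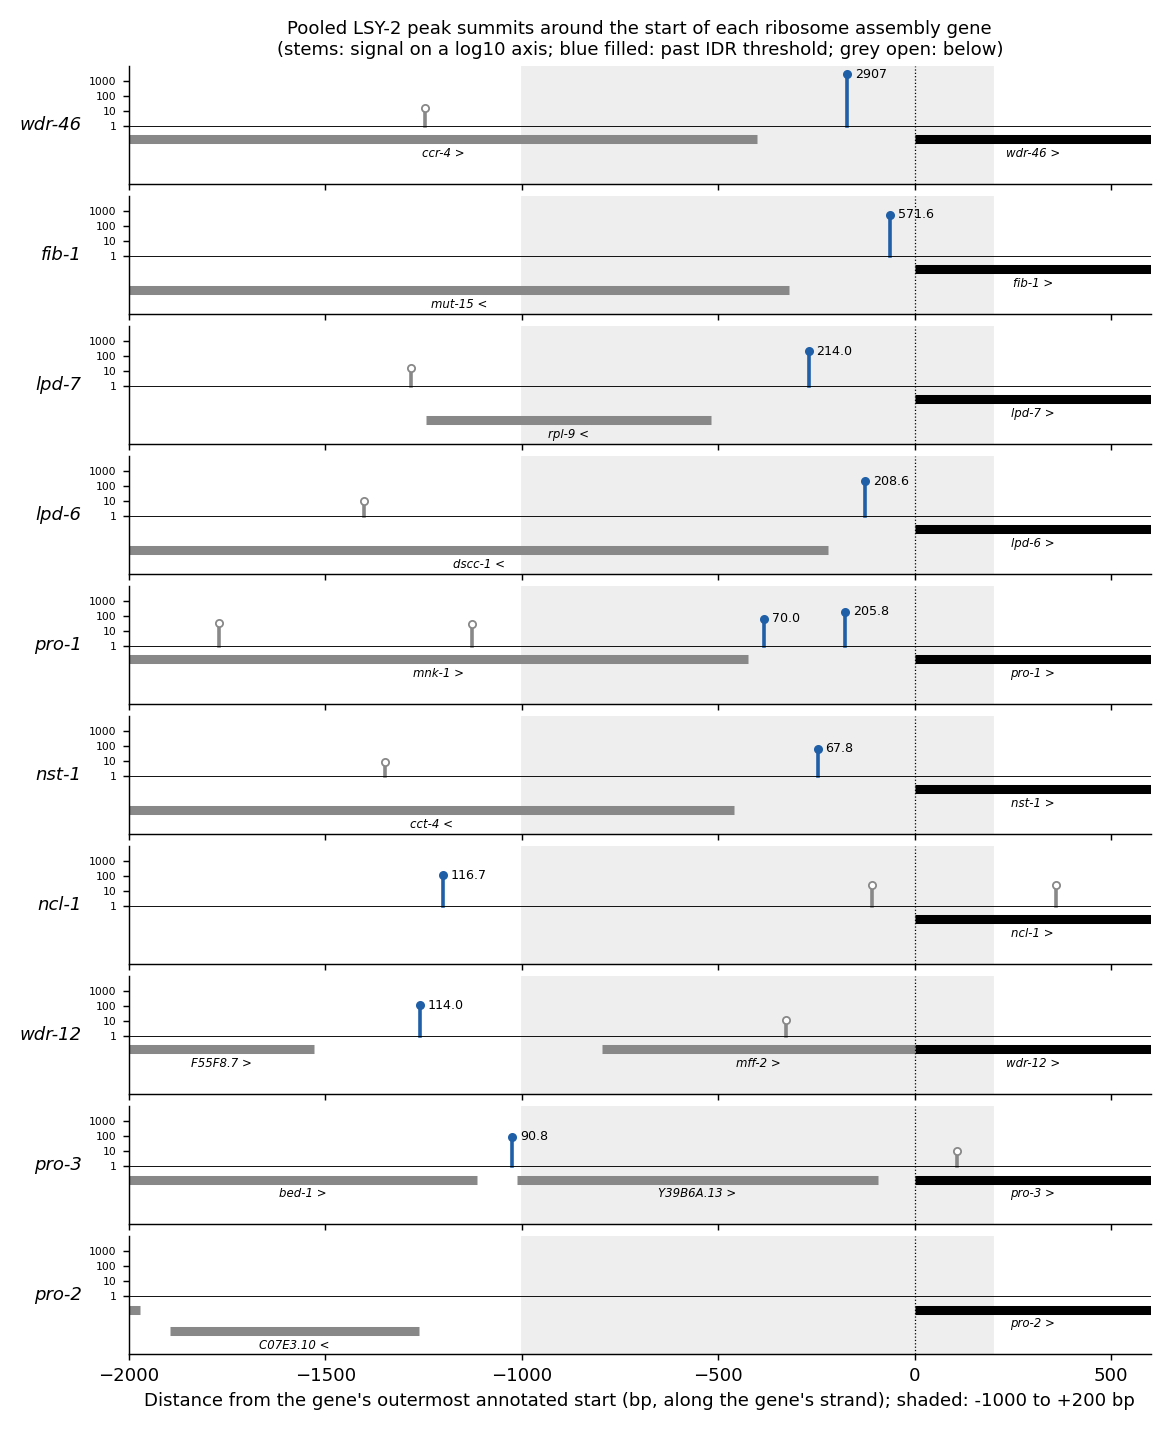
Pooled peak summits by distance in bp from the outermost start of each ribosome assembly gene, with signal on a log10 axis, filled stems for IDR peaks, open stems for weaker peaks and shading for the window of 1000 bp upstream to 200 bp downstream. Filled stems stand inside the shading at 6 genes and lie outside it at ncl-1, wdr-12 and pro-3.

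Shared promoters were common at the 6 genes, as over all genes with a peak, and the shares were not tested against each other. At 4 of the 6 genes with a peak (66.7%) the summit also lay in the window of another protein-coding gene, against 52% of all 3385 genes with a peak. At 3 of the 6 (50%), lpd-6, lpd-7 and nst-1, another coding start was nearer, against 27.2% of all such genes. Only fib-1, wdr-46 and pro-1 had the nearest coding start to their own summit.

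The remaining 4 genes, ncl-1, wdr-12, pro-3 and pro-2, had no IDR peak in their windows. Counting entries of any strength in the pooled list, which includes background, 9 of the 10 genes (90%) had one in a promoter window. The same count gave 39% of all protein-coding genes. The weakest signal of an IDR promoter peak among the 10 was that of nst-1, 67.8, and the strongest that missed the threshold was 37.9, at ncl-1. By distance upstream of the nearest own start, the farthest IDR summit inside a window was the second of pro-1 at 383 bp, and those next outside were of pro-3 at 1025 bp, ncl-1 at 1202 bp and wdr-12 at 1260 bp. Downstream, an IDR summit of ncl-1 lay 921 bp from its nearest start, outside the 200 bp limit.

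The gene for WDR12, wdr-12 (WBGene00018893, chromosome I, 5655950 to 5657917, minus strand), had a pooled peak of signal 12.1, with 7.83 in replicate 1 and 5.13 in replicate 2, a replicate mean of 6.48 ± 1.91 (SD, n = 2). That peak ranked 17807 of 30000, and its −log10 (q value) was 0.763, below the ceiling of 4.16 at which all 6 strongest promoter peaks stood. The summit lay 329 bp upstream, in a coding exon of mff-2, the next gene on the same strand, which overlaps wdr-12 by 1 bp. An IDR peak stood 465 bp upstream of mff-2, at 5659177, with a signal of 114 in the pool, 43.4 in replicate 1 and 69.8 in replicate 2.

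The SDA1 homologue pro-3 (WBGene00012676, chromosome V, 19101347 to 19118412, minus strand) showed the same arrangement. Its own pooled peak, 108 bp downstream of the start in a coding exon, had a signal of 10.5, ranked 21029 and had no replicate summit within 200 bp. The gene upstream on the same strand, Y39B6A.13, ends 92 bp away. Next on that strand, within 500 bp of Y39B6A.13, is bed-1 (19119527 to 19124922), which had no IDR promoter peak. An IDR peak from 19119267 to 19119606 had its summit 12 bp upstream of Y39B6A.13 and inside the non-coding RNA gene Y39B6A.74, whose window it shares, with a signal of 90.8 in the pool, 46.7 in replicate 1 and 40 in replicate 2.

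Such neighbours are of interest because C. elegans genes that lie close together on a strand can be transcribed as an operon from the promoter of the first gene. No operon annotation was used here, so which gene would be first is unknown. Among the 10 genes, 2 without a promoter peak lay within 500 bp of a same-strand upstream gene, and both of those neighbours had an IDR promoter peak. Over all protein-coding genes without a peak, 3471 lay as close to such a neighbour, and a peak stood upstream of 1251 of them (36%). Counting a gene's own promoter or that of its close upstream neighbours, 8 of the 10 genes (80%) had an IDR peak, against 23.2% of all protein-coding genes. This count was added after the peaks at mff-2 and Y39B6A.13 had been seen.

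The NOC2 homologue pro-2 (WBGene00007413, chromosome II, 10339727 to 10345112, minus strand) was the 1 gene of the 10 with no peak in its window in any list. Its nearest IDR summit was 5069 bp upstream, with a signal of 43.3, close to the lowest in the list. Its upstream neighbour on the same strand, stip-1, is 1971 bp away.

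Binding at ncl-1 (WBGene00003559, chromosome III, 7719729 to 7738105, plus strand), the repressor of nucleolar size, was spread over the gene. The gene is 18377 bp long with 10 transcripts from 8 annotated starts. Its promoter windows held 6 pooled peaks, the strongest with its summit at 7726766 in an intron, 353 bp upstream of the nearest start. That peak had a signal of 37.9 in the pool, 17.6 in replicate 1 and 19.3 in replicate 2, a replicate mean of 18.5 ± 1.19 (SD, n = 2). It ranked 4687 among pooled peaks, just outside the 4218 of the IDR list.

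Outside the windows, 5 IDR peaks surrounded or lay within ncl-1. The strongest, 1202 bp upstream of the first start in intergenic sequence, had a signal of 117 in the pool, 63.7 in replicate 1 and 54.1 in replicate 2. The intronic peak 1316 bp downstream of the first start was similar in the pool, at 113, with 71.2 in replicate 1 and 43.9 in replicate 2. Each of these 2 peaks exceeds the pooled signal of nst-1.

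The other 3 ncl-1 peaks were weaker. The peak at 3452 bp had a signal of 44.2 in the pool, 20.7 in replicate 1 and 24.4 in replicate 2. The peak at 8976 bp had 67.7 in the pool, 46.7 in replicate 1 and 23.6 in replicate 2, and it held both GAGAGA and GACGCA. The peak at 10073 bp had 84.4 in the pool, 46 in replicate 1 and 46.4 in replicate 2, and its summit also lies in a coding exon of ZK112.4, a gene that overlaps the ncl-1 intron.

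Among the 10 genes, ncl-1 alone had IDR summits inside the gene, where 4 were found among 24 pooled summits. Counting summits in the promoter window or the gene body, 7 of the 10 genes (70%) had an IDR peak, against 18.8% of all protein-coding genes. Length bears on such a count. Of the 249 protein-coding genes at least as long as ncl-1, 14 (5.62%) had 4 or more IDR summits inside and 180 had none, a comparison chosen after the ncl-1 peaks had been seen.

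**Figure D3:**
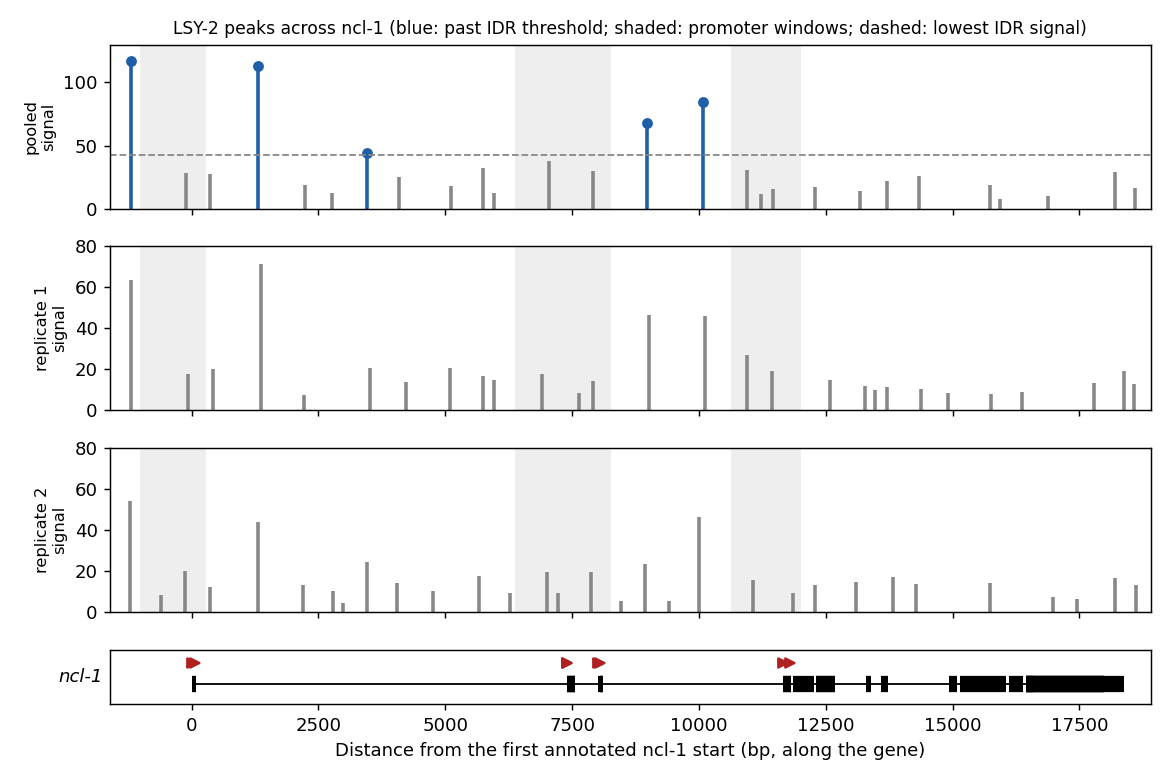
Signal of peaks along ncl-1 in the pooled, replicate 1 and replicate 2 lists by distance in bp from its first start, with blue for peaks past the IDR threshold, shading for promoter windows and a dashed line at the lowest IDR signal of 42.2. The 5 blue peaks, from 1202 bp upstream to 10073 bp downstream, all stand outside the shading.

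A wider list of ribosome assembly genes was set beside the 10, without any of them in it. It too was chosen with earlier results of these data known, so its counts are a description. Of its 70 names, 52 matched the annotation, and 31 of these (59.6%, 95% exact interval 45.1 to 73%) had an IDR promoter peak, against 16.9% of all protein-coding genes. The median signal of their strongest peaks was 142, with a range of 45.7 to 1146. With close upstream neighbours counted, 42 of the 52 (80.8%) had a peak, against 23.2% of all protein-coding genes. Among the 31 strongest summits, 3 had GAGAGA (9.68%), 4 had GACGCA (12.9%) and 3 had ACCGTA (9.68%) within 50 bp. Over all 4218 IDR summits these shares were 28.7%, 17.4% and 7.73%.

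All 7 genes of the snoRNP cores had an IDR promoter peak (100%, 95% exact interval 59 to 100%), as did fib-1. The share of all protein-coding genes was 16.9%. The box C/D genes nol-58, nol-56 and snu-13 had pooled signals of 289, 254 and 220. Those of the box H/ACA genes nola-3, Y48A6B.3, dkc-1 and garr-1 were 315, 290.3, 138 and 88.4. All 7 stood below fib-1, and the summit in each window was also in that of at least 1 other gene. The peak of nola-3 lay 625 bp upstream, in the window of C25A1.16.

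For the small subunit 9 of 13 genes (69.2%) had a peak, and for the large subunit 5 of 12 (41.7%), against 16.9% of all protein-coding genes. The names listed were 20 for the small and 21 for the large subunit. Unmatched names were left out, so both shares rest on partial lists. For the exosome and nucleases the count was 6 of 13 (46.2%), matched from 15 names, and the nucleolar gene dao-5 had a peak of 152. The strongest in the wider list was nog-1, a GTPase gene for the large subunit, at 1146 in the pool, 644 in replicate 1 and 510 in replicate 2. It was followed by the exosome gene exos-3 at 815 in the pool, rpl-24.2 at 662, the small subunit gene rbd-1 at 377 and nola-3 at 315. None reached the signal of wdr-46.

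Of 6 genes for RNA polymerase I, 3 had a peak (50%, 95% exact interval 11.8 to 88.2%), against 16.9% of all protein-coding genes. The subunit genes rpac-19 and rpoa-1 had pooled signals of 123 and 113. The rpoa-12 signal was 59.6 in the pool, 45 in replicate 1 and 10.3 in replicate 2, so its replicates were far apart. No IDR promoter peak was found at rpoa-2, rpoa-49 or rpac-40. The upstream neighbours of rpoa-49 (nfyc-1, 122 bp away) and rpac-40 (algn-5, 85 bp away) had one, an arrangement like that of wdr-12 and pro-3.

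Genes for the ribosomal proteins themselves, taken by their rpl, rps and rla names, had an IDR promoter peak at 72 of 80 (90%, 95% exact interval 81.2 to 95.6%). That compares with 16.9% of all protein-coding genes. The median signal of the 72 was 496. Of the 6 ribosome assembly genes with a peak, wdr-46 and fib-1 lay above that median. The 95% intervals of the shares of the 10 genes and of the ribosomal protein genes overlapped, which does not show that the shares are alike. The lists were not tested against each other.

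**Figure D4:**
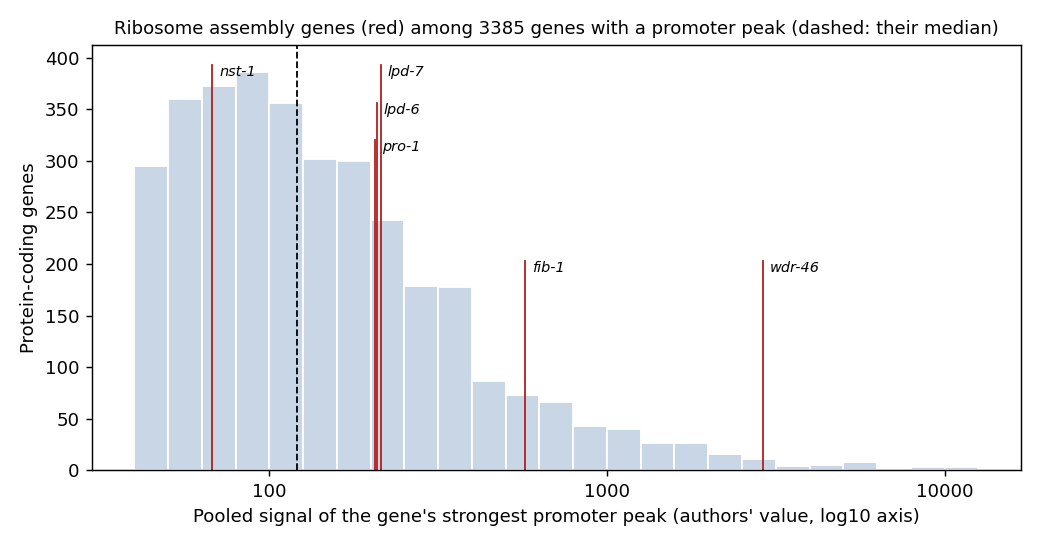
Histogram of the pooled signal of the strongest promoter peak, on a log10 axis, over the 3385 protein-coding genes with an IDR promoter peak, with red lines for the 6 ribosome assembly genes and a dashed line for the median of 121. Only nst-1, at 67.8, lies left of the median, and wdr-46 lies far to the right at 2907.

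**Figure D5:**
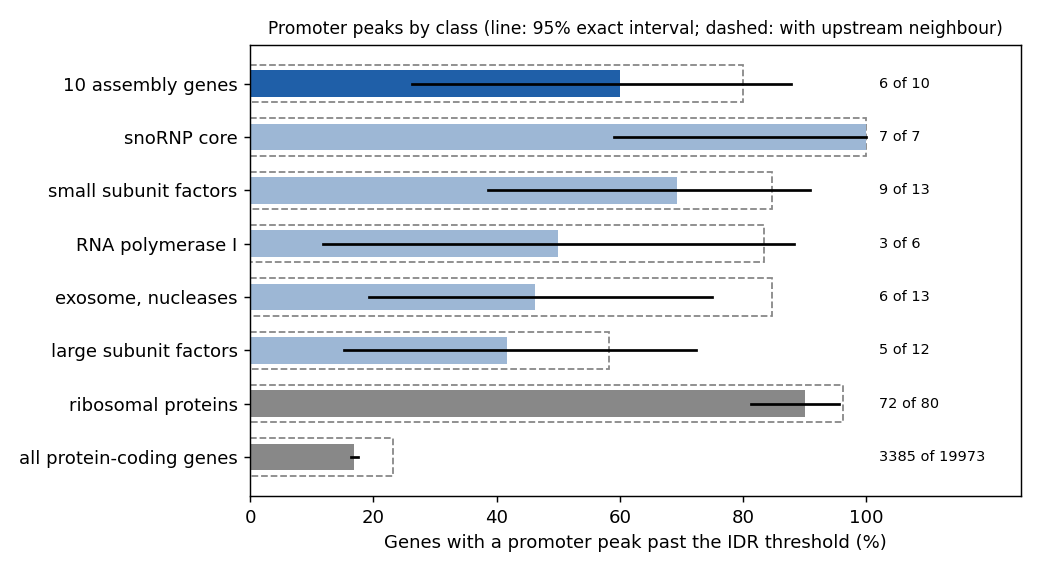
Percentage of genes with an IDR promoter peak in each class, with 95% exact intervals as lines and the percentage with close upstream neighbours counted as dashed outlines. The 10 genes stand at 60%, the snoRNP cores at 100% and all protein-coding genes at 16.9%.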

How the data were processed

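Chromatin bound by eGFP-LSY-2 was measured in 2 biological replicates. The authors deposited peak lists for each replicate, for the pool and after IDR, and the ce11 lists were used and the ce10 lists were not. Per the listings deposited with them, replicate and pooled lists came from alignments and 1 control alignment. The aligner, the peak caller, the versions and the IDR threshold were not given in the sources used here. Peak signal, as deposited, is on a scale the labels do not state, and the deposited −log10 (q value) was at its ceiling for most peaks named. Depth is unknown, and intervals (exact, Clopper-Pearson, 95%) cover the counting of genes only.

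Positions are 1-based on ce11 and were set against Ensembl release 115 genes and RefSeq's sequence of the same assembly. Names absent from Ensembl were looked up through RefSeq locus tags, and 18 of 70 stayed unmatched. The 10 genes, the wider list and the 6-mers were chosen with earlier results of these data known, so no set test was made and no p-values are given. Named were the 10 genes, every gene sharing the summit of their strongest peaks, close neighbours and, of the wider list, the 5 strongest and all RNA polymerase I and snoRNP core genes. Neighbours, ZK112.4 and dao-5 were named after their values were seen. Alternatives covered windows, overlap, nearest start, stronger peaks and each replicate alone, and the gene body and close upstream neighbours were added after seeing the data. Python 3.11.15, numpy 2.4.6, scipy 1.17.1 and matplotlib 3.10.9 were used, and the window and 6-mer searches were tested on simulated data.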

Additional observations from a re-analysis of the deposited data

How the results depend on the processing

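The count of 6 of the 10 genes with a promoter peak ranged from 5 to 9 under the other windows, overlap, stronger peaks, gene body and close neighbour alternatives, but fell to 3 (fib-1, wdr-46 and pro-1) when each summit was given only to its nearest coding start. These 3 are 30% of the 10 genes, against 12.5% of all protein-coding genes (2496 of 19973) under the same rule. Under the other alternatives the share of all protein-coding genes ran from 11% with stronger peaks to 23.2% with close neighbours counted. The nearest-start rule, which removes genes by construction, lowered the wider list to 19 of 52. The median signal over the 3 of the 10 genes left with a peak was 572, the value of fib-1, in place of 211 over 6. Keeping only the peaks above the median of the IDR list left 2200 of 19973 protein-coding genes and removed nst-1 from the 10. The widest window, 2000 bp upstream to 500 bp downstream, added ncl-1, wdr-12 and pro-3, and it gave a peak to 21.6% of all protein-coding genes. Without replicate 1 or without replicate 2 the count was 6 or 7, the wider list stayed at 31 in both, all genes came to 3386 or 3363, and the median signal was 100.1 or 119 on the lower replicate scale. The added gene was ncl-1, whose strongest window peak in replicate 1 had a signal of 26.9. IDR needs both replicates, so these counts rest on a cutoff within the list of the replicate that was kept. Totals close to the main counts are therefore no check on whether the replicates agree. Within 25 bp, ACCGTA was at 1 summit, that of wdr-46, in place of 2. No paired analysis was possible because there is 1 group and no test. With 10 genes the interval of the share is wide, and without read counts the precision of a single signal rests on the 2 replicates.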
